A study of Mus musculus with 24 samples.

Results

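The interferon regulatory factor (IRF) family was followed through lymph node B cells that lack PU.1, SpiB or both. The members were the 8 genes Irf1, Irf2, Irf3, Irf4, Irf5, Irf7, Irf8 and Irf9, taken by gene symbol from the 27179 entries of the count tables. All 8 passed the filter on low counts at every stage. RNA-seq covered 24 libraries from C57BL/6 mice, with 4 genotypes, 3 stages and 2 libraries in every group. Control mice were Cd23T/+, and so carried the Cd23-Cre transgene, in which Cd23 regulatory sequences drive Cre from the transitional B cell stage on. PU.1 conditional knockout (cKO) mice were Spi1fl/fl Cd23T/+. SpiB knockout (KO) mice were Spi1fl/fl Cd23+/+ Spib-/- and thus held floxed Spi1 without Cre. PU.1 SpiB double knockout (DKO) mice were Spi1fl/fl Cd23T/+ Spib-/-. B cells of each genotype were taken naive, or after 48 h in CD40L + IL-4 or in LPS + IL-4. CD40L stands in for T cell help, LPS is a bacterial product sensed by Toll-like receptor 4, and IL-4 is a T cell cytokine. By the study's methods, sorting kept B220+ cells and left out those with CD3, a T cell marker, or CD138, a plasma cell marker. The study describes the 2 libraries of a group as biological replicates. The mice's age was not given in the sample labels.

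IRF proteins bind GAAA repeats in DNA. IRF4 and IRF8 bind weakly alone and are recruited by PU.1 or SpiB, their Ets family partners, to composite Ets-IRF elements, and both take part in B cell differentiation. IRF3, IRF5 and IRF7 are activated downstream of nucleic acid sensors and Toll-like receptors and drive type I interferon and inflammatory genes. IRF9 is the DNA-binding part of the complex ISGF3, which switches on interferon-stimulated genes, Irf7 among them. IRF1 activates and IRF2 mostly represses overlapping sets of interferon-responsive genes.

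In GRCm38, Irf4 (Entrez Gene 16364) lies at chr13:30749233-30766981, Irf8 (15900) at chr8:120736358-120756694, Irf5 (27056) at chr6:29526130-29541869 and Irf7 (54123) at chr7:141263183-141266499. Irf3 (54131) lies at chr7:44997648-45002848, Irf9 (16391) at chr14:55603985-55610030, Irf1 (16362) at chr11:53770014-53778374 and Irf2 (16363) at chr8:46739745-46847458. Promoter windows of RefSeq (GRCm38.p6), from 250 bases before to 50 after a transcript start, were found for 8 of 8 members, as 11 windows. They were searched on both strands for 4 motifs. GGAAGT and GAGGAA are Ets cores. The Ets-IRF composite element was searched as GGAA and GAAA with 2 bases between them, and the core of the interferon-stimulated response element as GAAA and GAAA with 2 bases between them. Over all 32851 promoter windows, 23.8% held GGAAGT, 28.3% held GAGGAA, 2.72% the composite element and 3.44% the response element core. Irf7 and Irf8, shown because their changes below were among the largest falls and rises, held none of these letters in their windows. The upstream bases that lie outside the annotated gene are given, for Irf7 on the minus strand at chr7:141266500-141266674 and for Irf8 on the plus strand at chr8:120736108-120736357.
Irf7 upstream: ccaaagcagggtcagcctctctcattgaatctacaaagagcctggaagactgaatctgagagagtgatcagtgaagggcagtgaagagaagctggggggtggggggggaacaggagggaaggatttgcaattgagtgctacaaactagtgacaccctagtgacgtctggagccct
Irf8 upstream: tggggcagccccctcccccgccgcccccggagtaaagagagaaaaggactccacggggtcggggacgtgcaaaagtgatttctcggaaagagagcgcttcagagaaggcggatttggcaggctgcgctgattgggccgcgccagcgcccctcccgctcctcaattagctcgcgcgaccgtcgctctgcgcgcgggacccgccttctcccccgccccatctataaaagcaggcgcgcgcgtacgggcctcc

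Motif matches, in capitals, were present in the windows of the other 6 members, and are shown for Irf5 and Irf4, the members with the most calls against control, and for Irf2, which held the composite element. The start used for Irf5 lies inside the annotated gene. Irf5 held GGAAGT at position 39 after the start (chr6:29526645-29526674, plus strand). Irf4 held GAGGAA on the opposite strand at position -19 (chr13:30749202-30749231, plus strand shown). In Irf2 GGAAGT and the composite element share their first base at position -247, and the response element core starts at position -241, next to GGAAGT and overlapping the composite element (chr8:46739495-46739524, plus strand).
Irf5 window: gcgggggcggcgcgatgcGGAAGTgcgggg
Irf4 window: ggctctataaagTTCCTCtttctcacctca
Irf2 window: tggGGAAGTGAAAATGAAAttgacttttcc

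Library totals were 14.231 to 18.195 M counts when naive, 9.599 to 61.641 M after CD40L + IL-4 and 22.758 to 73.659 M after LPS + IL-4. Levels are given as CPM, counts scaled to a fixed library total, after TMM normalization within a stage, library 1 before library 2 of a group. Spib was at 1472 and 1355 CPM in naive control cells, 85.6 and 80.2 in SpiB KO and 98.8 and 100.4 in double mutant cells. Spi1 was at 155 and 174 CPM in naive control, 59.5 and 53.2 in PU.1 cKO and 103 and 110.2 in PU.1 SpiB DKO cells. After CD40L + IL-4, control had 84.9 and 108, PU.1 cKO 46.9 and 35.1 and PU.1 SpiB DKO cells 32.5 and 25.6. After LPS + IL-4, control had 72 and 60.7, PU.1 cKO 44.2 and 41.2 and PU.1 SpiB DKO cells 63.9 and 58.9. The Spi1 row counts every exon of the gene, those that Cre leaves in place included, so its level does not measure the deletion alone. The study describes the floxed Spi1 exon as partly kept in naive double mutant cells, which limits that group as a model of PU.1 loss. In the CD40L + IL-4 cultures it reports full excision of that exon, and in LPS + IL-4 a similarly high deletion. Naive SpiB KO and PU.1 SpiB DKO libraries also had higher levels of marker genes of other cell types, with 10 of 10 plasmacytoid dendritic cell (pDC) markers differentially expressed and higher in each. Whether this RNA came from other cells or from the B cells was not tested. The sort, as the study describes it, used B220, CD3 and CD138 and none of these 10 pDC markers. It thus did not leave out cells by a pDC marker. The B cell markers, 7 genes, summed to 10802 and 11207 CPM in naive control and 8955 and 8313 CPM in naive PU.1 SpiB DKO cells. Of these 7 genes, 1 was differentially expressed and lower in the double mutant, where 6.7% of all genes were, and 0 were higher. In bulk RNA, fewer cells of a type and less RNA per cell cannot be told apart.

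**Figure D1:**
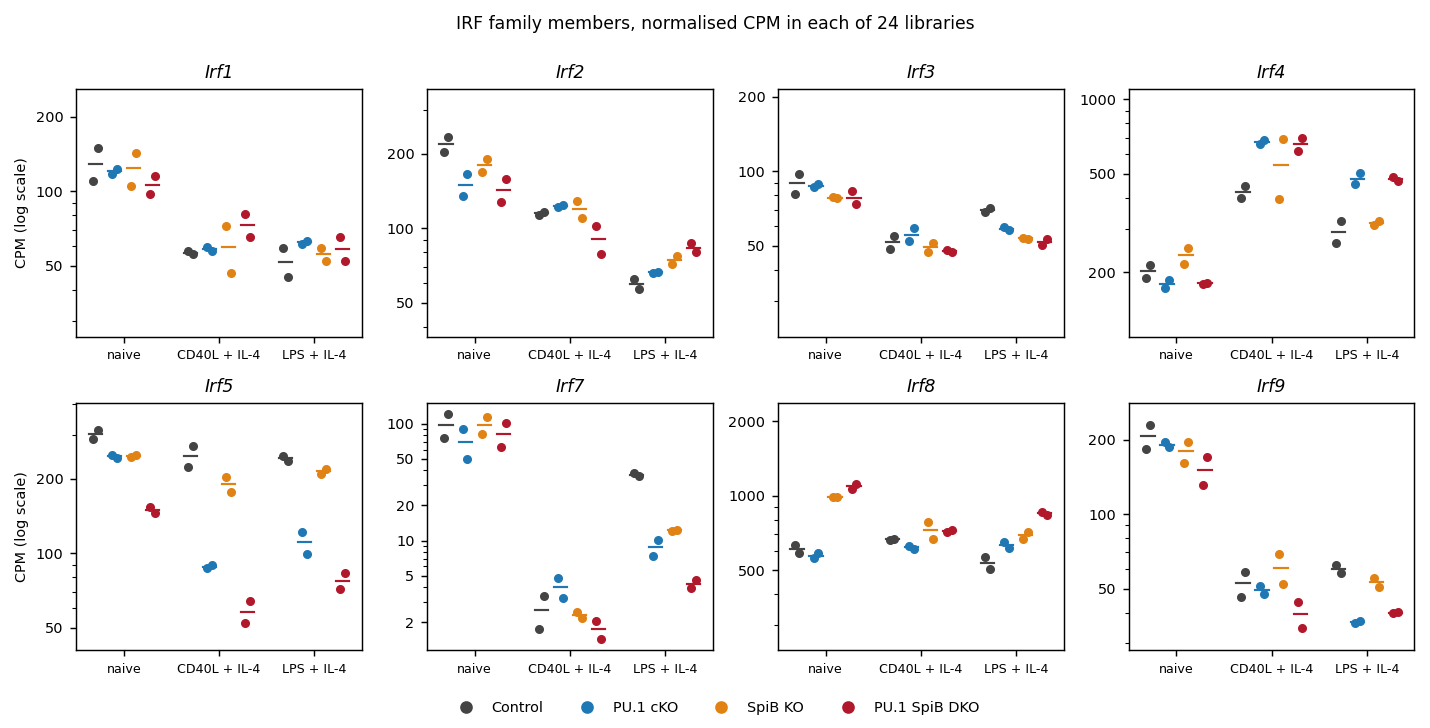
Each panel plots 1 IRF member, with TMM-normalised CPM on a log axis for the 2 libraries of each genotype (points) and their mean (line) at the 3 stages. Irf5 was lowest in PU.1 SpiB DKO cells at each stage, Irf8 in naive cells split into control and PU.1 cKO libraries at 559.5 to 632 CPM and SpiB KO and PU.1 SpiB DKO libraries at 989.6 to 1115 CPM, and Irf7 in LPS + IL-4 ran from 38 CPM in control to 3.91 in PU.1 SpiB DKO cells.

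Control B cells were compared first, for the levels of the family at each stage. Irf8 was the highest member at every stage on the deposited RPKM scale, which is per kilobase of exons, with means of 215 RPKM when naive, 233 after CD40L + IL-4 and 188 after LPS + IL-4. Irf5 came second, at 129.9, 102 and 99.1 RPKM, and its range overlapped that of the next member, Irf4, in CD40L + IL-4. In naive cells Irf2 (90.1 RPKM) and Irf9 (78.1 RPKM) followed with overlapping ranges. The last 4 in naive cells, Irf7, Irf4, Irf3 and Irf1 at 55.4 to 40.1 RPKM, each overlapped the next. In CD40L + IL-4 the order after Irf5 was Irf4 at 89.5, Irf2 at 44, Irf3 at 22.2, Irf9 at 18.5, Irf1 at 15.7 and Irf7 at 1.25 RPKM, where Irf3 and Irf9 overlapped. In LPS + IL-4 it was Irf4 at 60.9, Irf3 at 32, Irf2 at 24.3, Irf9 at 22.4, Irf7 at 20 and Irf1 at 15.6 RPKM, where Irf2 and Irf9 overlapped.

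With CD40L + IL-4, 5 members were DE and lower than in naive control cells, and Irf4 was DE and higher. A member is called differentially expressed (DE) where the adjusted p is under 0.15, the fold change exceeds 1.5 and the mean log2 RPKM is above 0, with edgeR's quasi-likelihood test and Benjamini-Hochberg adjustment over all genes tested. By that rule 6 of 8 members were DE between CD40L + IL-4 and naive control cells, where 35.4% of 13684 genes were (16.9% lower and 18.5% higher). Irf7, the amplifier of the type I interferon response, was at 82 and 126 CPM in naive control libraries and at 1.69 and 3.28 CPM after CD40L + IL-4, on the scale normalised over all 24 libraries. No library of the naive pair came near those of the CD40L pair, and the log2 fold change was -5.42 (SE 0.38, adjusted p = 6.3e-10). Irf9 was at 200.2 and 238 CPM in naive cells and 44.8 and 57.2 CPM after CD40L + IL-4, a log2 fold change of -2.11 (SE 0.17). Irf1, Irf2 and Irf3 also fell, with log2 fold changes of -1.33, -1.06 and -0.93. Irf4, which drives activated B cells towards plasma cells, rose from 206 and 225 CPM to 385 and 436 CPM (log2 fold change 0.93, SE 0.18, adjusted p = 0.000224). Irf8 stood at 687 and 611 CPM before and 642 and 654 CPM after, and these ranges overlapped.

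With LPS + IL-4 4 of 8 members were DE against naive control cells and these 4 were lower, where 47.5% of genes were DE and 21.9% were DE and lower. Irf2 went from 222 and 244 CPM in naive to 60 and 56.5 CPM in LPS + IL-4 cells, with a log2 fold change of -2.00 (SE 0.14, adjusted p = 3.78e-10). Irf9 fell by 1.91, Irf7 by 1.54 and Irf1 by 1.45 on the log2 scale. Irf3, Irf4, Irf5 and Irf8 passed the adjusted p and stayed under the fold threshold, with log2 fold changes of -0.49, 0.40, -0.45 and -0.32. Between the 2 cultures 2 of 8 members were DE, where 30.9% of genes were. Irf7 was at 36.5 and 35 CPM in LPS + IL-4 control cells, above both CD40L + IL-4 libraries, with a log2 fold change of 3.87 (SE 0.38, adjusted p = 1.93e-07). Irf2 fell by 0.94 on the log2 scale from CD40L + IL-4 to LPS + IL-4. The CD40L + IL-4 counts were deposited separately from those of naive and LPS + IL-4 cells. A difference between these deposits, or any batch that goes with stage, cannot be told apart from stage.

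**Figure D2:**
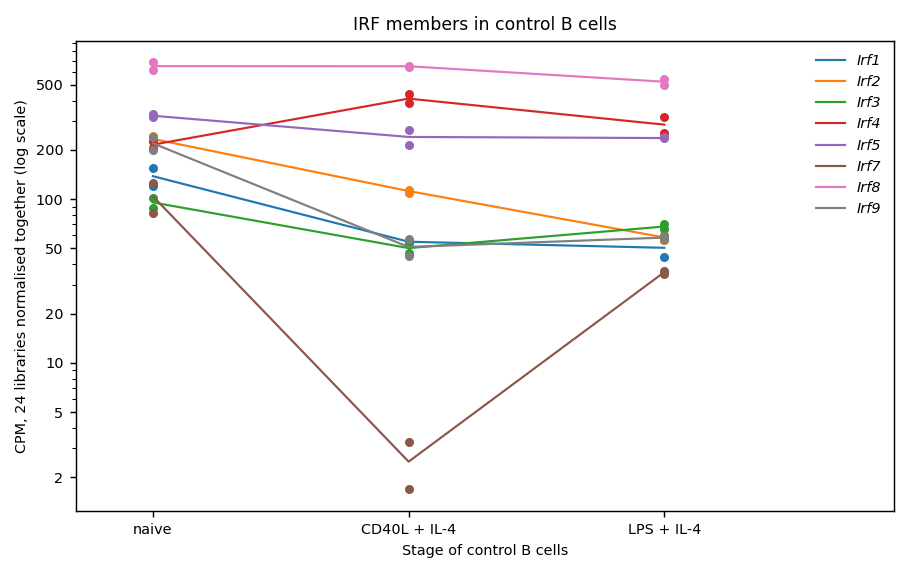
Lines join the mean CPM (log axis, normalised over all 24 libraries) of each IRF member in control B cells over the 3 stages, and points are the 2 libraries. Irf7 spans the widest range, from 126 CPM in a naive library to 1.69 CPM in a CD40L + IL-4 library, while Irf8 stays between 499 and 687 CPM.

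The 3 mutant genotypes were then compared with control within each stage, to ask which members depend on PU.1, on SpiB or on either. The 3 comparisons of a stage share its 2 control libraries. Of the 8 members 0 were DE in naive PU.1 cKO cells (8.4% of 12500 genes), 1 with SpiB KO (6.35%) and 3 in the double mutant (14.1%). For PU.1 cKO, 2 members (Irf2 and Irf5) had an unadjusted p under 0.05, and DESeq2 and limma voom each called 0. With CD40L + IL-4, PU.1 cKO cells had 2 members DE (9.36% of 12721 genes), SpiB KO cells 0 (0.11%) and the double mutant 2 (13.7%). For SpiB KO, 1 member (Irf5) had an unadjusted p under 0.05, and DESeq2 and limma voom each called 0. With LPS + IL-4, PU.1 cKO cells had 4 members DE (6.67% of 12445 genes), SpiB KO cells 1 (2.29%) and the double mutant 4 (13.6%). The median log2 fold change of the 8 members against control in the double mutant was -0.27 when naive, -0.23 with CD40L + IL-4 and -0.12 with LPS + IL-4, beside medians over all genes of 0.002, 0.002 and 0.008. The members moved in different directions, with Irf5, Irf7, Irf9 and Irf2 called lower and Irf4 and Irf8 called higher in at least 1 comparison with control.

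**Figure D3:**
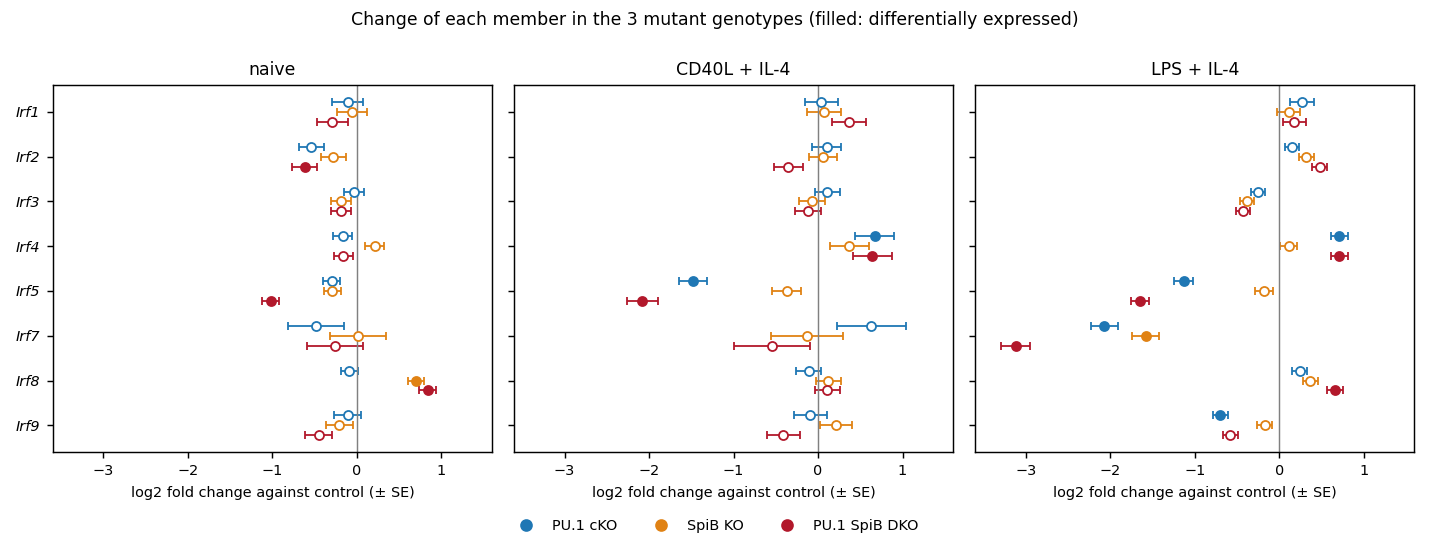
Points give the log2 fold change against control of each IRF member in PU.1 cKO, SpiB KO and PU.1 SpiB DKO cells, 1 panel per stage, with bars of 1 SE and filled points where the member was DE. Irf5 lies left of 0 in 9 of 9 comparisons, and the lowest point is Irf7 in LPS + IL-4 PU.1 SpiB DKO cells, at -3.12.

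Irf5, which transmits Toll-like receptor signals to inflammatory and interferon genes, had the most calls of the family, being DE and lower in 5 of 9 comparisons with control. In naive cells Irf5 was at 291 and 315 CPM in control, 250.1 and 244 with PU.1 cKO, 245 and 249.8 with SpiB KO and 154 and 146 for the double mutant. Both single mutants lay below control and above the double mutant without overlap. Their changes passed the adjusted p and were under the fold threshold, at -0.30 (SE 0.10, adjusted p = 0.104) in PU.1 cKO and -0.29 (SE 0.10, adjusted p = 0.124) in SpiB KO cells. In PU.1 SpiB DKO cells Irf5 fell 2.02-fold (log2 fold change -1.02, SE 0.10, adjusted p = 0.000165). The double mutant was also lower than each single mutant, by a log2 fold change of -0.72 (adjusted p = 0.00119) against PU.1 cKO, where 2 members were DE (7.21% of genes), and of -0.72 (adjusted p = 0.00662) against SpiB KO, where Irf5 was the 1 member DE (1.97%).

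In the cultures Irf5 was lowest in the genotypes with floxed Spi1 and Cre. With CD40L + IL-4 it was at 223 and 270.4 CPM in control, 87.1 and 89.6 with PU.1 cKO, 204 and 177 with SpiB KO and 52.2 and 64 for the double mutant. Both pairs with Cre and floxed Spi1 lay below every control and SpiB KO library. The log2 fold change was -1.48 (SE 0.17, adjusted p = 0.000411) in PU.1 cKO and -2.08 (SE 0.18, adjusted p = 3.52e-05) in PU.1 SpiB DKO cells, and -0.37 (SE 0.17, adjusted p = 1) in SpiB KO cells. Against PU.1 cKO the double mutant was lower by a log2 fold change of -0.60 (adjusted p = 0.127), the 1 member DE there (3.01% of genes), a call lost without either library of either group (adjusted p of 0.212 to 0.472). With LPS + IL-4 Irf5 was at 248 and 237 CPM in control, 122 and 99.6 with PU.1 cKO, 210.2 and 219 with SpiB KO and 71.8 and 83.4 for the double mutant. The 4 genotypes took the same order as with CD40L + IL-4. The log2 fold change was -1.13 (SE 0.11, adjusted p = 0.000223) in PU.1 cKO, -0.18 (SE 0.11, adjusted p = 0.54) in SpiB KO and -1.65 (SE 0.11, adjusted p = 1.23e-05) in PU.1 SpiB DKO cells.

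The change of Irf5 in PU.1 cKO cells was more negative in each culture than in naive cells, by a log2 difference of -1.17 (SE 0.18, adjusted p = 0.00134) with CD40L + IL-4 and of -0.86 (SE 0.18, adjusted p = 0.0157) with LPS + IL-4. In PU.1 SpiB DKO cells these differences were -1.05 (adjusted p = 0.000872) and -0.69 (adjusted p = 0.014). All 4 held without any 1 of the 8 libraries compared. Against SpiB KO, the double mutant was lower by a log2 fold change of -1.71 with CD40L + IL-4 (adjusted p = 0.000195), where 2 members were DE (11.4% of genes), and of -1.47 with LPS + IL-4 (adjusted p = 6.12e-05). The summed level of 8 macrophage and monocyte markers moved with Irf5 in CD40L + IL-4. It was 44.4 and 59.5 CPM in control, 10.4 and 9.13 with PU.1 cKO, 59.5 and 40.6 with SpiB KO and 11.9 and 8.86 for the double mutant. C1qa, Cd14 and Csf1r were at 0 in both libraries of each group, and Lyz2 and Mertk in both control libraries. In each culture only 3 of the 8 markers passed the filter on low counts. In LPS + IL-4 the sum was 18.4 and 11.7, 6.03 and 3.69, 21 and 23.5, and 7.45 and 6.17 CPM in that order of genotypes, with C1qa at 0 in each. In naive cells it was higher in PU.1 SpiB DKO (73 and 72.7 CPM) than in control (25.1 and 13.8 CPM), while Irf5 was lower. The part of these markers in the fall of Irf5 was not tested. Irf5 overlaps Tnpo3, a nuclear import receptor gene, whose means in control and PU.1 SpiB DKO cells were 75.8 and 75.5 CPM when naive, 131 and 132 with CD40L + IL-4 and 222 and 179.7 with LPS + IL-4. In PU.1 cKO cultures they were 141 CPM with CD40L + IL-4 and 223 CPM with LPS + IL-4. The libraries do not mark strand, so reads from a stretch that both genes share cannot be assigned.

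Irf8 moved the other way in naive cells. It was at 632 and 585 CPM in control and 559.5 and 587 in PU.1 cKO libraries, but at 992 and 989.6 in SpiB KO and 1067 and 1115 in double mutant libraries. Every library lacking SpiB stood above every library with it. Irf8 rose with a log2 fold change of 0.70 (SE 0.10, adjusted p = 0.00399) in SpiB KO and 0.84 (SE 0.10, adjusted p = 0.000606) in PU.1 SpiB DKO cells, against -0.09 (SE 0.10, adjusted p = 0.666) in PU.1 cKO cells. It was higher in the double mutant than in PU.1 cKO cells by a log2 fold change of 0.93 (adjusted p = 0.000384). Against SpiB KO the log2 fold change was 0.14 (adjusted p = 0.675). Irf8 is also strongly expressed in pDCs, and the markers of that cell moved with it. The 10 pDC markers summed to 364 and 229 CPM in control, 269.8 and 253 with PU.1 cKO, 1587 and 1268 with SpiB KO and 1800 and 1665 for the double mutant, with no marker at 0. Siglech, a defining pDC marker, went from 57.2 and 23.9 CPM in control to 237 and 199.9 in SpiB KO and 267 and 229 in double mutant cells. The 6 dendritic cell markers summed to 32.4 and 16.2 CPM in control, 101 and 92.8 in SpiB KO and 139 and 125 in double mutant cells, and the 7 T cell markers to 96.7 and 65.4, 363 and 305, and 477 and 459.7 CPM in the same groups. Of the 6 T cell markers tested, Cd8a and Cd4 were DE and higher in SpiB KO, and these and Lck in double mutant cells. Cd8a went from 12 and 2.35 CPM in control to 231 and 175 in SpiB KO and 266 and 233 in double mutant cells. The CD3 genes, which define T cells, stayed at or below 1.23 CPM in these 3 groups, and Thy1 at 3.32 to 6.37 CPM. The part of these marker genes in the rise of Irf8 was not tested. As stated above, the sort left out cells with CD3 or CD138 and used none of the 10 pDC markers.

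After CD40L + IL-4 Irf8 lay within 612 to 781 CPM in all 8 libraries, and no log2 fold change against control exceeded 0.12 in size. In the LPS + IL-4 cultures it was at 566 and 505 CPM in control, 650.5 and 617 with PU.1 cKO, 668 and 715 with SpiB KO and 859.8 and 837 for the double mutant. The double mutant stood above all other libraries. Its log2 fold change was 0.66 (SE 0.09, adjusted p = 0.000547), against 0.24 (adjusted p = 0.124) in PU.1 cKO and 0.37 (adjusted p = 0.0746) in SpiB KO cells, both under the fold threshold. Without the second control library it was 0.58, which is under the fold threshold. In these LPS + IL-4 libraries the pDC marker sum was not higher in the double mutant. It was 80.8 and 99.2 CPM in control and 52.7 and 52.1 CPM in PU.1 SpiB DKO cells, with Siglech, Klk1 and Cd300c at 0 in both double mutant libraries. Klk1 and Cd300c were also at 0 in both control libraries, where Siglech had 1 and 0 counts. The 6 dendritic cell markers summed to 29.1 and 32.5 CPM in control and 10.1 and 10.5 CPM in PU.1 SpiB DKO cells.

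**Figure D4:**
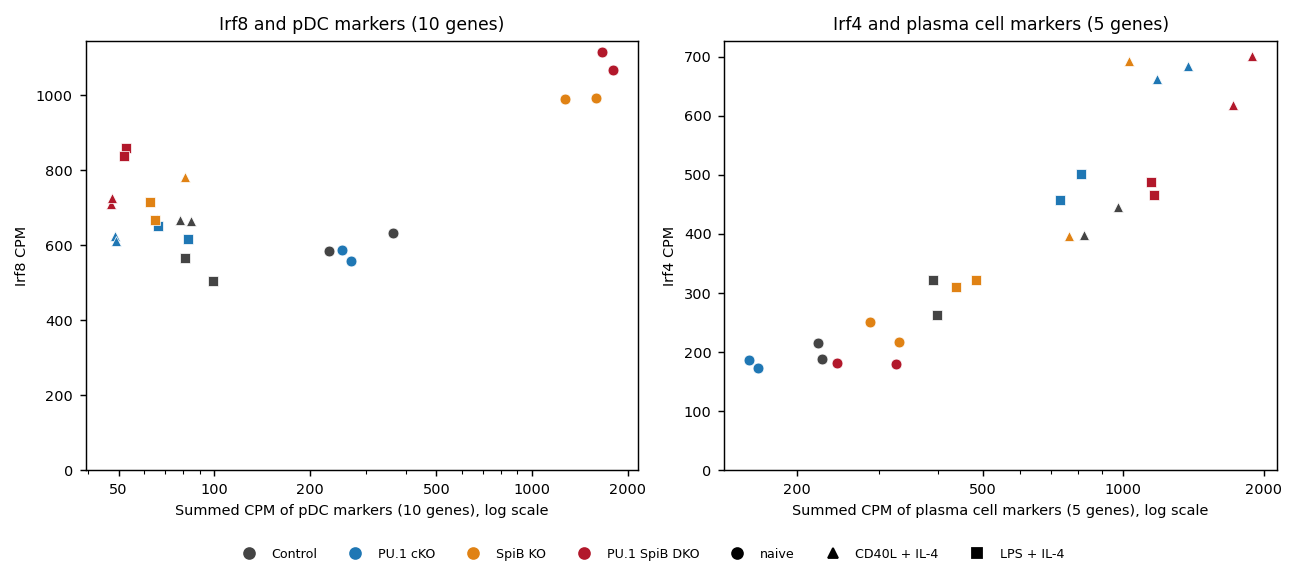
Points are libraries, coloured by genotype and shaped by stage, with Irf8 CPM against the summed CPM of 10 pDC markers on the left and Irf4 CPM against that of 5 plasma cell markers on the right (linear vertical axes, log horizontal axes). The 4 naive libraries lacking SpiB stand at 1268 to 1800 CPM of pDC markers and 989.6 to 1115 CPM of Irf8, whereas the LPS + IL-4 PU.1 SpiB DKO pair has 837 and 859.8 CPM of Irf8 at 52.1 and 52.7 CPM of these markers.

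Irf4 rose in PU.1-deficient cultures. Naive cells had 189 and 215 CPM in control, 173 and 187 with PU.1 cKO, 217 and 250.3 with SpiB KO and 180.3 and 182 for the double mutant, and no comparison there was called (adjusted p of 0.357 to 0.423 against control). With LPS + IL-4 Irf4 was at 263 and 322 CPM in control, 457 and 502 with PU.1 cKO, 310.0 and 322 with SpiB KO and 488 and 466 for the double mutant. The groups with and without the Cre-mediated loss of PU.1 did not overlap. The log2 fold change was 0.71 (SE 0.10, adjusted p = 0.002) in PU.1 cKO, 0.71 (SE 0.10, adjusted p = 0.000932) in PU.1 SpiB DKO and 0.11 (adjusted p = 0.697) in SpiB KO cells. Without the first control library the values were 0.58 and 0.56, under the fold threshold. Against SpiB KO, Irf4 was higher in the double mutant by a log2 fold change of 0.60 (SE 0.10, adjusted p = 0.00431), 1 of 3 members DE there (8.09% of genes), and it was under the fold threshold without the first library of either group (0.55 and 0.56), with all 24 libraries in the fit (0.53) and with no filter on low counts (0.56).

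With CD40L + IL-4 Irf4 was at 399 and 446 CPM in control, 662 and 684 with PU.1 cKO, 397 and 692 with SpiB KO and 618 and 700.4 for the double mutant. The SpiB KO libraries lay far apart, 1 below both control libraries and 1 above both PU.1 cKO libraries. Irf4 was DE in PU.1 cKO (log2 fold change 0.67, SE 0.23, adjusted p = 0.102) and in PU.1 SpiB DKO cells (0.64, SE 0.23, adjusted p = 0.0885). The first call was lost without either library of either group (adjusted p of 0.201 to 0.329) and the second without the first control or the second double mutant library (adjusted p of 0.317 and 0.309). The summed level of 5 plasma cell markers was also higher than in control in the groups where Irf4 was called. It was 398 and 391 CPM in control, 733 and 810.2 with PU.1 cKO, 438 and 484 with SpiB KO and 1147 and 1164 CPM with both lost, all in LPS + IL-4. With CD40L + IL-4 it was 825 and 974, 1182 and 1378, 765 and 1030, and 1721 and 1888 CPM in the same order. In LPS + IL-4 the sum was higher in the double mutant than in PU.1 cKO cells, while Irf4 overlapped between them. Tnfrsf17, a receptor of mature plasma cells, was at 0 in both LPS + IL-4 control libraries and in both CD40L + IL-4 PU.1 SpiB DKO libraries. Cells with CD138 had been left out by sorting, as stated above. For CD40L + IL-4 the study describes few cells with CD138 at this time. It interprets the raised plasma cell regulators there, Irf4 among them, as early signs of a greater tendency to differentiate. Among B cell regulators in the same culture, the study also describes Irf4 and Irf8 as similar between genotypes. It reports similar results for LPS + IL-4. The part of plasma cells in the rise of Irf4 was not tested here.

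Irf7 fell in LPS + IL-4 cultures of all 3 mutants. It was at 38 and 35.4 CPM in control, 7.41 and 10.2 with PU.1 cKO, 12.1 and 12.4 with SpiB KO and 3.91 and 4.58 for the double mutant. The 4 pairs did not overlap. The log2 fold change was -2.07 (SE 0.16, adjusted p = 6.43e-05) in PU.1 cKO, -1.58 (SE 0.16, adjusted p = 0.00171) in SpiB KO, where Irf7 was the 1 member called, and -3.12 (SE 0.17, adjusted p = 4.27e-06) in PU.1 SpiB DKO cells. The double mutant was lower than PU.1 cKO by a log2 fold change of -1.05 (SE 0.17, adjusted p = 0.00476), the 1 member DE there (8.1% of genes), and lower than SpiB KO by one of -1.54 (SE 0.17, adjusted p = 0.000408). These 5 calls held without any 1 of the libraries compared. In naive cells Irf7 ranged from 49.9 to 121 CPM, with differences between the libraries of a group as wide as between groups, and log2 fold changes of -0.48, 0.01 and -0.26 against control. With CD40L + IL-4 Irf7 was at 1.43 to 4.81 CPM, from 15 to 197 counts a library, and no change against control was detectable at this depth (adjusted p of 0.402 to 1). Between the double mutant and PU.1 cKO, whose libraries did not overlap, the log2 fold change was -1.18 (adjusted p = 0.255), and it was called with no filter on low counts (-1.19, adjusted p = 0.0864).

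Irf9, the DNA-binding part of ISGF3, was called in 1 comparison with control. With LPS + IL-4 it was at 62 and 57.7 CPM in control, 36.3 and 37.1 with PU.1 cKO, 55.4 and 50.9 with SpiB KO and 39.8 and 40.2 for the double mutant. Both groups with floxed Spi1 and Cre lay below both others. The log2 fold change was -0.70 (SE 0.09, adjusted p = 0.000942) in PU.1 cKO cells. In PU.1 SpiB DKO cells it was -0.58 (SE 0.09, adjusted p = 0.00123), just under the fold threshold and past it with DESeq2 (-0.59), with limma voom (-0.60) and with no filter on low counts (-0.61). In SpiB KO cells it was -0.17 (adjusted p = 0.472). With CD40L + IL-4 Irf9 was at 69 and 52.1 CPM in SpiB KO and 44 and 34.7 in double mutant libraries, a log2 fold change of -0.62 (SE 0.20, adjusted p = 0.0708) between them that was lost without the first SpiB KO library (adjusted p = 0.428) or the second double mutant library (0.384). In naive cells Irf9 was at 184 and 228 CPM in control and 131 and 169.7 CPM in PU.1 SpiB DKO cells (log2 fold change -0.45, adjusted p = 0.0734, under the fold threshold).

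Interferon-stimulated genes were followed beside Irf7 and Irf9, from a list of 24. With LPS + IL-4, PU.1 cKO cells had 15 of 24 DE and lower (2.74% of all genes), SpiB KO cells 14 (0.667%) and the double mutant 16 (4.81%), and 0 were DE and higher. Their median log2 fold changes were -1.61, -1.20 and -2.55, beside medians over all genes of -0.002, -0.001 and 0.008. In the double mutant 24 of 24 were lower at an adjusted p under 0.15, where 22.4% of all genes were. Dhx58, a regulator of RNA sensing, fell by 2.16 on the log2 scale (SE 0.10, adjusted p = 1.79e-06). Oasl2, of the oligoadenylate synthetase family, had a log2 fold change of -2.82 (SE 0.14), Rtp4 one of -3.59 (SE 0.17) and Isg15, a ubiquitin-like modifier, one of -2.27 (SE 0.12). In naive PU.1 SpiB DKO cells 8 of 24 were DE and lower (6.7% of all genes) and 1, Ifi44, was DE and higher (7.39%), with a log2 fold change of 2.25 (SE 0.23, adjusted p = 0.000223). With CD40L + IL-4 17 of 24 passed the filter, of which 3 were DE and higher (5.84% of all genes) and 4 DE and lower (7.82%) in the double mutant. In control cells 16 of 24 were DE and lower in CD40L + IL-4 than in naive cells (median -3.82, with 16.9% of all genes DE and lower). From CD40L + IL-4 to LPS + IL-4, 15 of 24 were DE and higher (median 3.28, with 16.6% of all genes DE and higher). Irf7 moved in the same direction in both comparisons. Between LPS + IL-4 and naive control cells, where Irf7 fell, the list had 6 DE and higher (25.6% of all genes) and 7 DE and lower (21.9%). These counts were not far from the shares over all genes, and the median was -0.44.

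**Figure D5:**
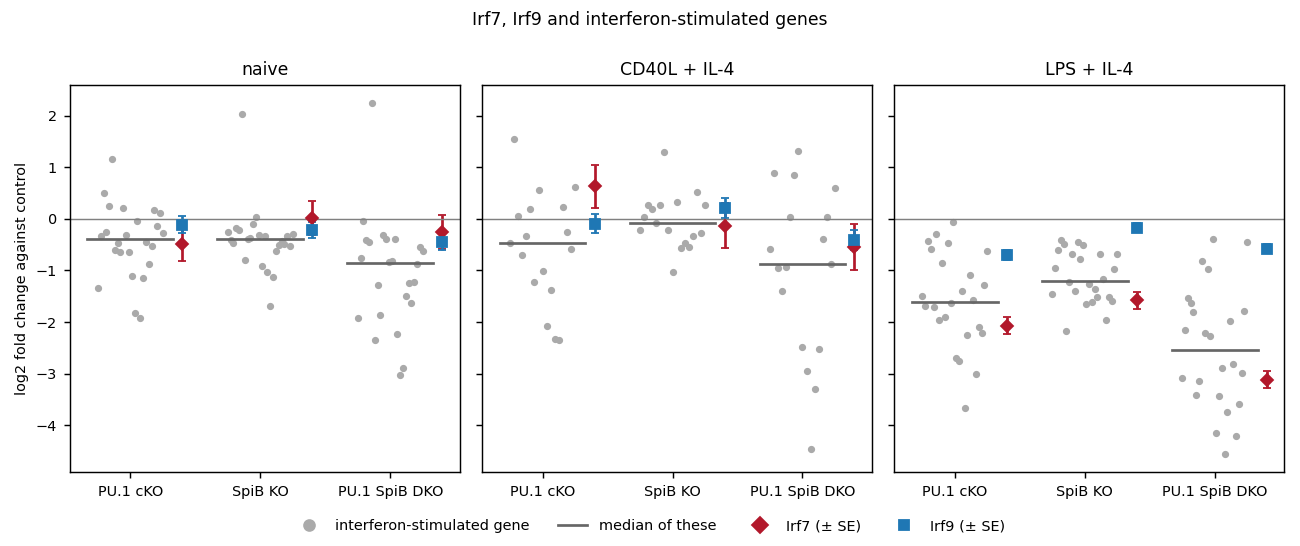
Grey points are the log2 fold changes against control of the interferon-stimulated genes tested at a stage (17 after CD40L + IL-4, 24 at both other stages), with their median as a line, beside Irf7 and Irf9 with bars of 1 SE. In LPS + IL-4 all medians are at -1.20 or lower and Irf7 lies below the median in each genotype, while Irf9 stays between -0.70 and -0.17.

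Irf2 was called in 1 comparison with control, and Irf3 and Irf1 in 0. In naive cells Irf2 was at 204 and 234 CPM in control, 135 and 166 with PU.1 cKO, 169.9 and 191 with SpiB KO and 128 and 158 for the double mutant. All mutant libraries lay below both control libraries. Irf2 was DE in PU.1 SpiB DKO cells (log2 fold change -0.62, SE 0.15, adjusted p = 0.0172), a call lost under the fold threshold with limma voom (-0.52) and without the second control (-0.51) or the first double mutant library (-0.47). In PU.1 cKO cells the value was -0.54 (SE 0.15, adjusted p = 0.0564), under the fold threshold. With LPS + IL-4 all mutant libraries lay above both control libraries, with 62.6 and 57.2 CPM in control, 66.2 and 66.9 with PU.1 cKO, 71.6 and 77.4 with SpiB KO and 87.1 and 80 for the double mutant, and a log2 fold change of 0.48 (SE 0.09, adjusted p = 0.00251) in the double mutant, under the fold threshold. The change of Irf2 in the double mutant differed between LPS + IL-4 and naive cells by 1.03 on the log2 scale (SE 0.20, adjusted p = 0.00147).

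Irf3, which is activated by cytosolic nucleic acid sensors and drives interferon-beta, was at 68.2 and 71.3 CPM in control and 50.4 to 59.3 CPM in the 6 mutant libraries with LPS + IL-4. The groups did not overlap, but each log2 fold change was under the fold threshold, at -0.25 (adjusted p = 0.0734) in PU.1 cKO, -0.38 (adjusted p = 0.0402) in SpiB KO and -0.43 (adjusted p = 0.003) in PU.1 SpiB DKO cells. In naive and CD40L + IL-4 cells its log2 fold changes lay between -0.19 and 0.11. Irf3 lies 466 kb from Spib on chromosome 7. For Irf1 the log2 fold changes against control ran from -0.29 to 0.37 over the 3 stages. With CD40L + IL-4 Irf1 was at 57.4 and 55.7 CPM in control and 80.9 and 65.1 CPM in PU.1 SpiB DKO cells (log2 fold change 0.37, SE 0.20, adjusted p = 0.26).

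Whether the double loss departed from the sum of the single losses was tested as an interaction on the log2 scale. It passed an adjusted p of 0.15 for 0 of 8 naive members (0.936% of genes), 0 after CD40L + IL-4 (1.17%) and 0 after LPS + IL-4 (1.48%), and DESeq2 and limma voom also gave 0 at each stage. At an unadjusted p under 0.05 there were 1 (Irf5), 0 and 2 (Irf7 and Irf9) members. The estimate for Irf5 was -0.43 (SE 0.14, adjusted p = 0.297) in naive cells, -0.23 (SE 0.24, adjusted p = 0.956) in CD40L + IL-4 and -0.34 (SE 0.16, adjusted p = 0.465) in LPS + IL-4. For Irf7 in LPS + IL-4 it was 0.53 (SE 0.23, adjusted p = 0.437). For Irf8 in naive cells it was 0.23 (SE 0.15, adjusted p = 0.62). A p that misses the threshold does not show that the losses add up. By the study, the floxed Spi1 exon was lost in naive PU.1 cKO cells but partly kept in naive double mutant cells. The naive interaction, and the double mutant's differences between a culture and naive cells, thus do not rest on an equal loss of PU.1.

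Genotype effects were also set against each other over stages, with an interaction term in 1 fit of 24 libraries and a call at an adjusted p under 0.15. The PU.1 cKO effect differed between CD40L + IL-4 and naive cells for 3 of 8 members (9.05% of 13684 genes), between LPS + IL-4 and naive cells for 4 (6.34%) and between the cultures for 1 (3.09%). The SpiB KO effect differed for 1 (2.15%), 2 (5.65%) and 0 members (0% of genes). That 0 came with 2 members at an unadjusted p under 0.05, and with 0 calls by DESeq2 and by limma voom. The double mutant's effect differed for 4 (16.8%), 4 (29.6%) and 4 members (28.6%). The members were Irf2, Irf4, Irf5 and Irf7 for PU.1 cKO, Irf2, Irf7 and Irf8 for SpiB KO, and all but Irf9 for the double mutant.

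Among 20 genes upstream of IRF3, IRF5 and IRF7, the PU.1 SpiB DKO cells had 5 DE and lower and 1 DE and higher when naive, 6 and 1 with CD40L + IL-4, and 4 and 0 with LPS + IL-4. Over all genes the shares DE and lower and DE and higher were 6.7% and 7.39% when naive, 7.82% and 5.84% with CD40L + IL-4 and 4.81% and 8.76% with LPS + IL-4, which are the background of the list counts that follow as well. Tlr9, the receptor for CpG DNA, fell by 2.54 on the log2 scale (SE 0.20, adjusted p = 2.39e-05) with CD40L + IL-4 and by 1.39 (SE 0.17, adjusted p = 0.000294) with LPS + IL-4. Unc93b1, which carries Toll-like receptors to endosomes, fell by 1.45 and 0.85 in these cultures. Slc15a4, an endolysosomal transporter needed for IRF5 activation, fell by 1.23 with CD40L + IL-4 and by 0.76 in naive cells. Ifih1, a cytosolic RNA sensor, fell by 2.28 (SE 0.10, adjusted p = 1.25e-06) with LPS + IL-4. Myd88, the common Toll-like receptor adaptor, had a log2 fold change of 0.96 (SE 0.16, adjusted p = 0.00336) with CD40L + IL-4.

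Of 9 interferon receptor and ISGF3 partner genes, 1 was DE and lower and 1 DE and higher in naive double mutant cells, where 14.1% of all genes were DE, and 3 were DE and lower in each culture (7.82% and 4.81% of all genes). Stat2 had log2 fold changes of -0.71 in naive cells, -1.57 with CD40L + IL-4 and -0.64 with LPS + IL-4. Ifnar2, a chain of the type I interferon receptor, rose in naive cells (log2 fold change 1.22, SE 0.12, adjusted p = 0.000147). Of 9 DNA-binding partner genes of IRF4 and IRF8, 7 passed the filter in naive cells and 8 in each culture. In naive double mutant cells 3 were DE and lower (6.7% of all genes), among them Junb at -1.36 and Ikzf3 at -0.85 on the log2 scale. With CD40L + IL-4 4 were DE and higher (5.84% of all genes), and with LPS + IL-4 2 were (8.76%). Jun, an AP-1 subunit, was 1 of these at all 3 stages, with log2 fold changes of -1.25 in naive and 1.51 in LPS + IL-4 cells.

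Of 10 genes regulated by IRF4 or IRF8, 3 were DE and lower in naive double mutant cells (6.7% of all genes), 4 DE and higher (5.84%) and 4 DE and lower (7.82%) with CD40L + IL-4, and 3 DE and higher (8.76%) with LPS + IL-4. Prdm1, which encodes the plasma cell regulator Blimp-1, rose by a log2 fold change of 2.46 (SE 0.18, adjusted p = 1.38e-05) with CD40L + IL-4 and 1.58 (SE 0.12, adjusted p = 1.82e-05) with LPS + IL-4. Xbp1, a regulator of secretion, rose by 0.96 and 1.56 on the log2 scale. Ciita, the regulator of MHC class II genes, had log2 fold changes of -1.04 when naive and -1.56 with CD40L + IL-4, and Bcl6, the regulator of germinal centre B cells, one of -1.73 when naive. Prdm1 and Xbp1 are also among the 5 plasma cell markers, so this list and the marker sum are not separate measurements.

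The genes whose pattern was most like each member's were found by Pearson's r of log2 CPM centred on the stage mean, over 24 libraries and 11581 genes. These values describe shared patterns among libraries that also share genotype, cell mixture and depth. Irf5 was closest to Lyl1 (r = 0.952), Noxred1 (0.944) and Ncf1 (0.943), and Irf8 to Agtrap (0.947), Srgap3 (0.936) and Ptprs (0.934). Irf7 was closest to Usp18 (0.836), Dhx58 (0.835) and Siah2 (0.828), the first 2 being interferon-stimulated genes. Irf9 was closest to Trim12c (0.896), Il10ra (0.893) and Ifi27l2a (0.883), and Irf4 to Nabp1 (0.871), Ipmk (0.858) and Dnaaf2 (0.848). Irf2 was closest to Etv3 (0.902), Plekhm1 (0.885) and Zfp217 (0.870). The closest to Irf3 were Fancf (0.782), Akt1s1 (0.769) and Sult2b1 (0.735), which lie on chromosome 7 as Irf3 and Spib do, 7328, 317 and 1198 kb from Spib. Irf1 had the weakest likeness, to Fgd6 (0.774), Zscan26 (0.740) and Zfp1 (0.710).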

How the data were processed

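RNA-seq of 24 libraries of lymph node B cells was analysed, 2 per genotype and stage. The authors aligned reads with Subread to GRCm38 (mm10) and made the deposited counts with featureCounts over RefSeq exons from unique reads. Quantile-normalised log2 RPKM values, deposited by the authors for each library, served here only for the expression threshold and the order of members. The authors' TruSeq libraries do not mark strand. Here 517 entries without a symbol (0.162% of counts) were kept in library totals.

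Counts were tested with edgeR 4.0.16 (TMM, quasi-likelihood, Benjamini-Hochberg adjustment over all genes) in R 4.3.3, after a filter of 0.5 CPM in 2 libraries. Genotypes were compared in 1 fit of 8 libraries per stage, and stages, and genotype effects between stages, in 1 fit of 24 libraries. A gene was DE where the adjusted p was under 0.15, the fold change exceeded 1.5 and the mean log2 RPKM was above 0; tests of a difference between effects used the adjusted p alone. The SE is the log2 fold change divided by the square root of F. limma 3.58.1 (voom) and DESeq2 1.42.0 were alternatives, beside other scaling, filters and thresholds, a replicate block and the loss of each library. The test was tried on simulated counts.

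Replicate numbers are in the labels. Deviations of same-numbered libraries from their group means correlated at 0.355 to 0.504 in 6 of 6 pairs of groups in LPS + IL-4, at 0.0582 to 0.211 in naive and at -0.069 to 0.226 in CD40L + IL-4 cells, so only the LPS + IL-4 numbers were taken to pair libraries, from the data and not the labels. The main fits held no replicate block at any stage, so their SE and adjusted p do not use this pairing. Each p-value weighs a difference against the spread between libraries of a group, as estimated over all groups of the fit. The members and lists were chosen with earlier results of these data known. Members were described in full, and of each list the 2 to 4 genes DE with the lowest adjusted p in PU.1 SpiB DKO cells at a stage were named, with their values at other stages; 2 such genes are not reported here by name. Names of genes most like a member took the 3 highest Pearson's r.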

Additional observations from a re-analysis of the deposited data

Results flagged for a closer look

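The effect of a genotype, as its log2 fold change against control, was compared between stages by the interaction of genotype and stage in 1 fit of 24 libraries, and 23 differences of the 8 members passed an adjusted p of 0.15 (edgeR's quasi-likelihood test). Each value is the effect in the first stage named minus that in the second. Comparisons of 1 genotype share their control libraries.

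Irf5 had a more negative effect in the cultures. In PU.1 cKO cells the difference was -1.17 for CD40L + IL-4 minus naive (SE 0.18, adjusted p = 0.00134) and -0.86 for LPS + IL-4 minus naive (SE 0.18, adjusted p = 0.0157). In PU.1 SpiB DKO cells it was -1.05 (SE 0.19, adjusted p = 0.000872) and -0.69 (SE 0.18, adjusted p = 0.014). These 4 held without any 1 library.

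Irf7 differed for LPS + IL-4 against both other stages. The differences from naive cells were -1.62 in PU.1 cKO (SE 0.40, adjusted p = 0.037), -1.59 in SpiB KO (SE 0.40, adjusted p = 0.0446) and -2.93 in PU.1 SpiB DKO cells (SE 0.41, adjusted p = 8.7e-05). Those from CD40L + IL-4 were -2.69 in PU.1 cKO (SE 0.51, adjusted p = 0.0114) and -2.66 in PU.1 SpiB DKO cells (SE 0.64, adjusted p = 0.0101), against CD40L + IL-4 levels of 1.43 to 4.81 CPM.

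The Irf8 effect was smaller in CD40L + IL-4 than in naive cells, by a difference of -0.57 in SpiB KO (SE 0.15, adjusted p = 0.092) and -0.72 in PU.1 SpiB DKO cells (SE 0.15, adjusted p = 0.00396). The effect was higher in LPS + IL-4 than in CD40L + IL-4 in the double mutant by 0.48 (SE 0.15, adjusted p = 0.0381). pDC markers, higher in the naive cells that lack SpiB and not in the cultures, move with the first pair of differences, and their part was not tested.

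Irf4 differed in PU.1 cKO by 0.85 for CD40L + IL-4 minus naive (SE 0.25, adjusted p = 0.067) and by 0.85 for LPS + IL-4 minus naive (SE 0.25, adjusted p = 0.0862). In PU.1 SpiB DKO cells it differed by 0.82 (SE 0.25, adjusted p = 0.0478) and 0.80 (SE 0.25, adjusted p = 0.0356). Irf2 differed in PU.1 cKO by 0.66 (SE 0.20, adjusted p = 0.0732) and 0.67 (SE 0.20, adjusted p = 0.0837) for the same pairs of stages, and in SpiB KO by 0.59 for LPS + IL-4 minus naive (SE 0.20, adjusted p = 0.143). In PU.1 SpiB DKO cells Irf2 differed by 1.03 for LPS + IL-4 minus naive (SE 0.20, adjusted p = 0.00147) and by 0.75 for LPS + IL-4 minus CD40L + IL-4 (SE 0.20, adjusted p = 0.0175). Irf1 differed in PU.1 SpiB DKO cells by 0.67 for CD40L + IL-4 minus naive (SE 0.27, adjusted p = 0.149), and Irf3 by -0.39 for LPS + IL-4 minus CD40L + IL-4 (SE 0.16, adjusted p = 0.098).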

How the results depend on the processing

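Counts of members called were recomputed with 1 choice changed. With all libraries kept, 220 of 246 counts stayed within 1.5 times, and of 504 values of called members 480 were still called; without 1 library these were 131 of 168 and 273 of 340, and 0 called values changed sign. With no threshold on fold, naive PU.1 cKO went from 0 to 2 and naive SpiB KO from 1 to 2 members, and in LPS + IL-4 SpiB KO from 1 to 4, PU.1 SpiB DKO from 4 to 7, the double mutant against PU.1 cKO from 1 to 5 and against SpiB KO from 3 to 5, while control LPS + IL-4 went from 4 to 8 against naive and from 2 to 5 against CD40L + IL-4 cells. At an adjusted p under 0.05, CD40L + IL-4 counts went from 2 to 1 for PU.1 cKO, the double mutant and the double mutant against SpiB KO, and from 1 to 0 for the double mutant against PU.1 cKO, where limma voom also gave 0 and no filter on low counts 2. Differences of the PU.1 cKO effect from naive went at that threshold from 3 to 1 (CD40L + IL-4) and from 4 to 2 (LPS + IL-4), and those of the SpiB KO effect from 1 to 0 (0 with voom) and from 2 to 1 (1 with RLE size factors, no filter and voom). With no filter, the differences between the cultures went from 1 to 2 for PU.1 cKO and from 0 to 1 for SpiB KO. With the replicate block, naive interactions went from 0 to 1 (Irf5, adjusted p = 0.0627) and PU.1 cKO differences between the cultures from 1 to 3. Within LPS + IL-4, where the numbers pair libraries, the block changed no call.

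Without 1 library, naive counts ranged from 0 to 1 for PU.1 cKO and 2 to 4 for PU.1 SpiB DKO; CD40L + IL-4 counts from 1 to 1 for PU.1 cKO, 1 to 2 for PU.1 SpiB DKO, 0 to 0 against PU.1 cKO and 1 to 3 against SpiB KO; and LPS + IL-4 counts from 3 to 4, 3 to 5, 1 to 2 and 2 to 3. Control counts ranged from 6 to 7, 4 to 5 and 2 to 3. Differences between stages ranged from 1 to 3, 1 to 4 and 1 to 1 for PU.1 cKO, 0 to 1, 0 to 3 and 0 to 0 for SpiB KO, and 2 to 4, 4 to 5 and 2 to 4 for PU.1 SpiB DKO. Of the differences by stage, those of Irf2 and Irf4 in PU.1 cKO, Irf2 and Irf8 in SpiB KO, and Irf1 and Irf3 in PU.1 SpiB DKO cells were each lost in 4 to 7 of the 8 fits that leave out 1 library (adjusted p up to 0.484). That of Irf7 between LPS + IL-4 and naive was lost in PU.1 cKO without the first naive PU.1 cKO library (-1.12, adjusted p = 0.235), and in SpiB KO without the second naive (-1.33, 0.162) or the first LPS + IL-4 SpiB KO library (-1.61, 0.153). For the double mutant, that of Irf4 between CD40L + IL-4 and naive was lost without the first CD40L + IL-4 control library (0.71, adjusted p = 0.15), and that of Irf8 between the cultures without the second LPS + IL-4 control library (0.42, 0.173). With 2 libraries a group, a change under the threshold was not shown to be absent.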
